A study of Mus musculus with 6 samples.

Results

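The Wnt ligands, the Frizzled receptors with their co-receptors Lrp5 and Lrp6, the R-spondins and the secreted Wnt antagonists were examined in colon RNA of mice with dextran sulfate sodium (DSS) colitis. The group was formed by name: every row of the count table whose symbol begins with Wnt, Fzd, Rspo, Sfrp or Dkk directly followed by a digit, together with Lrp5, Lrp6, Wif1 and Frzb. This gave 43 of the 18477 listed genes, namely 17 Wnt ligands, 4 R-spondins, 10 Frizzled receptors, 2 Lrp co-receptors, 6 secreted Wnt-binding antagonists (the Sfrp proteins, Frzb and Wif1) and 4 Dickkopf genes. All mice were male C57BL/6 animals aged 6 to 8 weeks, and all received 2% DSS, which injures the colon epithelium, in the drinking water for 7 days (days 8 to 14). PBS was gavaged once daily for 14 days in the DSS group. In the DSS+BV group the gavage held the gut bacterium Bacteroides vulgatus in PBS, on the same schedule. For sequencing, 3 mice were picked at random from each group and 1 colon library was made per mouse, and mice without DSS were not part of the comparison. The comparison asks how these genes differed between colitic colons with and without the bacterium.

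Wnt proteins are lipid-modified ligands that bind a Frizzled receptor and Lrp5 or Lrp6 at the cell surface, which stabilises beta-catenin and turns on target genes through TCF/LEF factors. R-spondins amplify this signal through the Lgr receptors by protecting Frizzled from removal at the membrane, whereas the Sfrp proteins, Frzb and Wif1 bind Wnt ligands outside the cell and Dickkopf proteins such as Dkk1 and Dkk2 block Lrp5 and Lrp6. In the colon, Wnt signalling maintains the stem cells at the crypt base, and mesenchymal cells around the crypts are a known source of ligands, R-spondins and antagonists.

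The 6 libraries held between 15293276 and 17254343 expected counts, and 14579 genes passed the filter on low counts. Levels are given as CPM, counts scaled by the TMM-adjusted size of each library. Each log2 fold change sets DSS+BV against DSS, so that negative values are lower with the bacterium. Libraries did not group by treatment alone: on log2 CPM, DSS 1 had a higher correlation with DSS+BV 1 (0.9723) than with DSS 2 (0.9455) or DSS 3 (0.955), DSS 2 was closest to DSS+BV 2 (0.9704), and the lowest correlation was between DSS 3 and DSS+BV 3 (0.8941). Where leaving out a library changed a call among the genes grouped by name, this is given beside the gene. The range of the fold change with a library left out is given for part of these genes only. For the other pathway genes named below no value with a library left out is given, so their stability is not known. All of 12 epithelial and 12 smooth muscle markers passed the filter, which cannot tell colon from other parts of the gut.

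Of the 43 genes, 28 passed the filter and could be tested, and 24 of these had a negative and 4 a positive log2 fold change. The median was -0.54, compared with -0.01 over all tested genes, of which 7501 were negative and 7078 positive. A gene was called where its adjusted p was under 0.05 and its log2 fold change was beyond 1 in either direction. With edgeR's quasi-likelihood test, 0 of the 28 genes were called in either direction, against a background of 0.0892% lower and 0% higher of all tested genes. DESeq2 with the same thresholds called 3 of them lower, Sfrp1, Rspo3 and Rspo1, and 0 higher, where its background was 1.93% lower and 0.274% higher. At an unadjusted edgeR p-value under 0.05, 9 were lower and 0 higher (background 9.12% and 3.4%). In 8 genes each DSS+BV library was below each DSS library, and in 0 genes the reverse held, against 11.3% and 6.37% of all tested genes. These 8 were the R-spondins Rspo1 and Rspo3, the receptors Fzd1 and Fzd2, the antagonists Sfrp1, Sfrp5 and Frzb, and the Dickkopf gene Dkk3.

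The lowest medians belonged to the Dickkopf genes, the R-spondins and the secreted Wnt-binding antagonists, and those of the ligands and receptors were nearer to 0. The median log2 fold change was -1.60 for the 2 tested Dickkopf genes, -1.55 for the 2 tested R-spondins and -1.42 for the 6 secreted Wnt-binding antagonists. The order of these medians depended on the processing. The Dickkopf median was -1.04 with a filter of CPM of at least 1 in 3 libraries, which Dkk2 did not pass. With the replicate number as a block it was -1.45, compared with -1.54 for the R-spondins and -1.47 for the secreted antagonists. It was -0.39 for the 8 tested Wnt ligands, -0.19 for the 8 tested Frizzled receptors and 0.15 for Lrp5 and Lrp6. No test was run over these lists, so that the medians describe these 6 libraries. In whole colon, fewer cells of a type and less RNA per cell cannot be told apart.

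**Figure D1:**
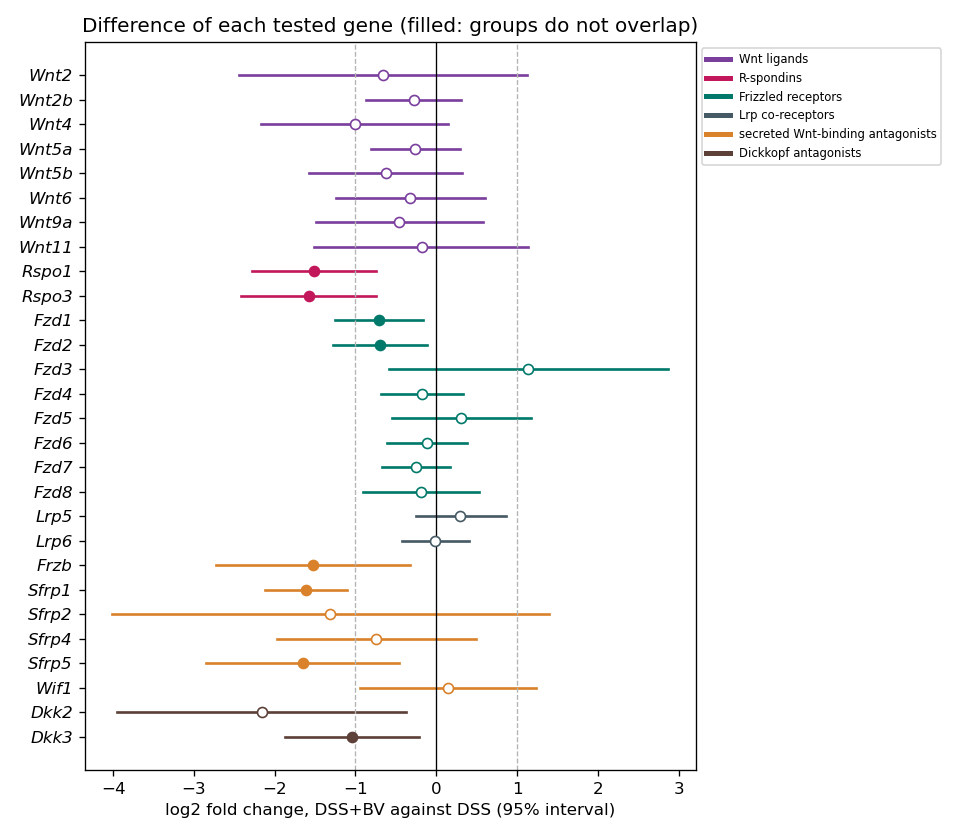
Log2 fold change of each of the 28 tested genes, DSS+BV against DSS, on the horizontal axis, with its 95% interval from the edgeR fit (n = 3 libraries per group) and colours for the subfamilies. Filled points are the 8 genes whose groups do not overlap, all at negative values, and the dashed lines mark a log2 fold change of 1 in either direction.

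Summed levels separated the libraries in the same 3 subfamilies. The secreted Wnt-binding antagonists summed to 200, 249 and 217 CPM in DSS 1, 2 and 3, compared with 98.6, 64.3 and 69.7 CPM in DSS+BV 1, 2 and 3, with means of 222 ± 25.2 and 77.5 ± 18.4 CPM (SD, n = 3 each). The R-spondins summed to 16.0, 21.6 and 31.1 CPM against 9.83, 7.39 and 6.13 CPM. For the Dickkopf genes the sums were 51.8, 51.4 and 113 CPM against 40.8, 30.4 and 32.1 CPM. In these 3 subfamilies every DSS+BV library was below every DSS library. The Wnt ligands overlapped, at 88.9, 61.1 and 87.4 CPM against 74.1, 48.4 and 61.6 CPM. The Frizzled receptors overlapped as well, at 277, 355 and 302 CPM against 262, 276 and 326 CPM. Lrp5 and Lrp6 together were at 239, 265 and 184 CPM against 244, 243 and 250 CPM, within the range of the DSS libraries. A sum is led by its most abundant gene, which was Sfrp1 with 82.8% of the secreted Wnt-binding antagonists, Rspo3 with 85.6% of the R-spondins and Dkk3 with 97.3% of the Dickkopf counts. Without Sfrp1 the secreted antagonists were at 40.9, 20.8 and 43.9 CPM against 24.7, 14.5 and 9.86 CPM, so that the groups then overlapped. The Dickkopf sum without Dkk3 overlapped as well, at 0.659, 4.1 and 2.33 CPM against 0.857, 0.319 and 0.443 CPM. The R-spondins without Rspo3 remained separate, at 2.93, 3.05 and 3.67 CPM against 1.12, 1.15 and 1.33 CPM. In the Frizzled receptors the removal of Fzd5 made the groups separate, with 188, 174 and 226 CPM against 153, 136 and 145 CPM.

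**Figure D2:**
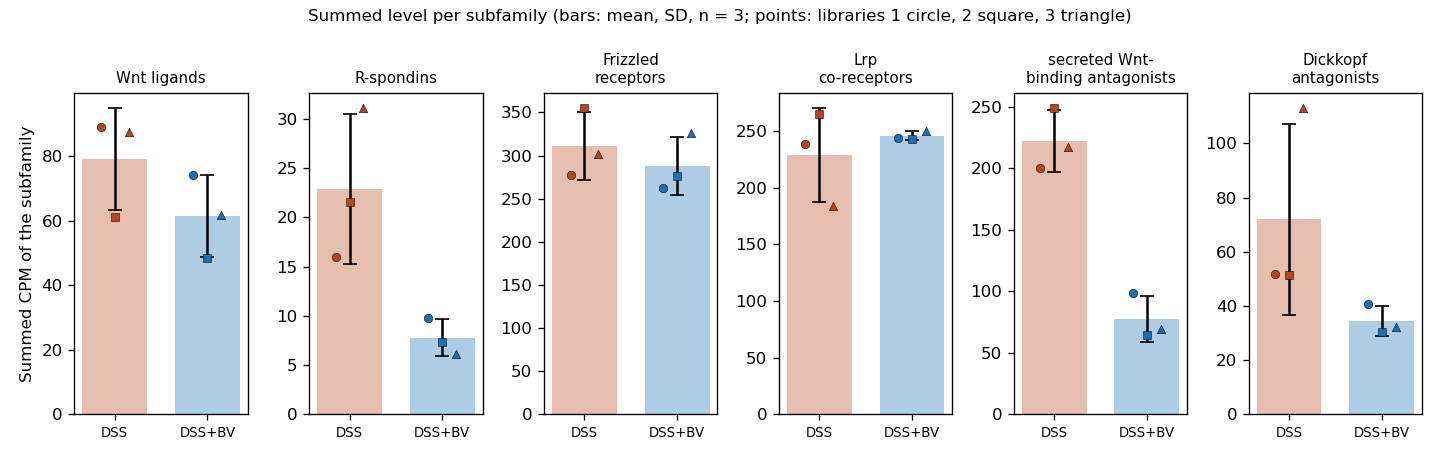
Summed CPM of each subfamily in the DSS and DSS+BV groups, 1 panel per subfamily with its own axis from 0. Bars are means, error bars are SD (n = 3) and points are libraries, and only the R-spondins, the secreted Wnt-binding antagonists and the Dickkopf genes have all DSS+BV points below all DSS points.

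Levels of different genes can be set side by side only after scaling by length. CPM was therefore divided by the length in kilobases of all annotated exons of each gene, merged over its transcripts. This length can exceed that of a single transcript, which lowers the value of such a gene. On this scale the highest of the 43 genes in the DSS group was Sfrp1 at 42.7 ± 8.42 CPM per kb, followed by Fzd1 at 27.5 ± 7.47, Dkk3 at 20.7 ± 10.5, Fzd5 at 16.7 ± 8.24 and Lrp6 at 11.3 ± 2.36 (SD, n = 3 each). The ranges of mean ± SD overlapped between each gene and its neighbour in this order. In the DSS+BV group the order was headed by Fzd5 at 20.7 ± 5.24, with Fzd1 at 16.8 ± 2.35, Sfrp1 at 14 ± 2.76, Lrp6 at 11.2 ± 0.285 and Dkk3 at 10.1 ± 1.57 CPM per kb. Neighbours in this order overlapped in the same way. The most abundant ligands, Wnt5a and Wnt2b, were at 5.02 ± 0.97 and 4.26 ± 0.452 CPM per kb in the DSS group, below Rspo3 at 6.37 ± 2.34, although the spread of Rspo3 covers both.

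**Figure D3:**
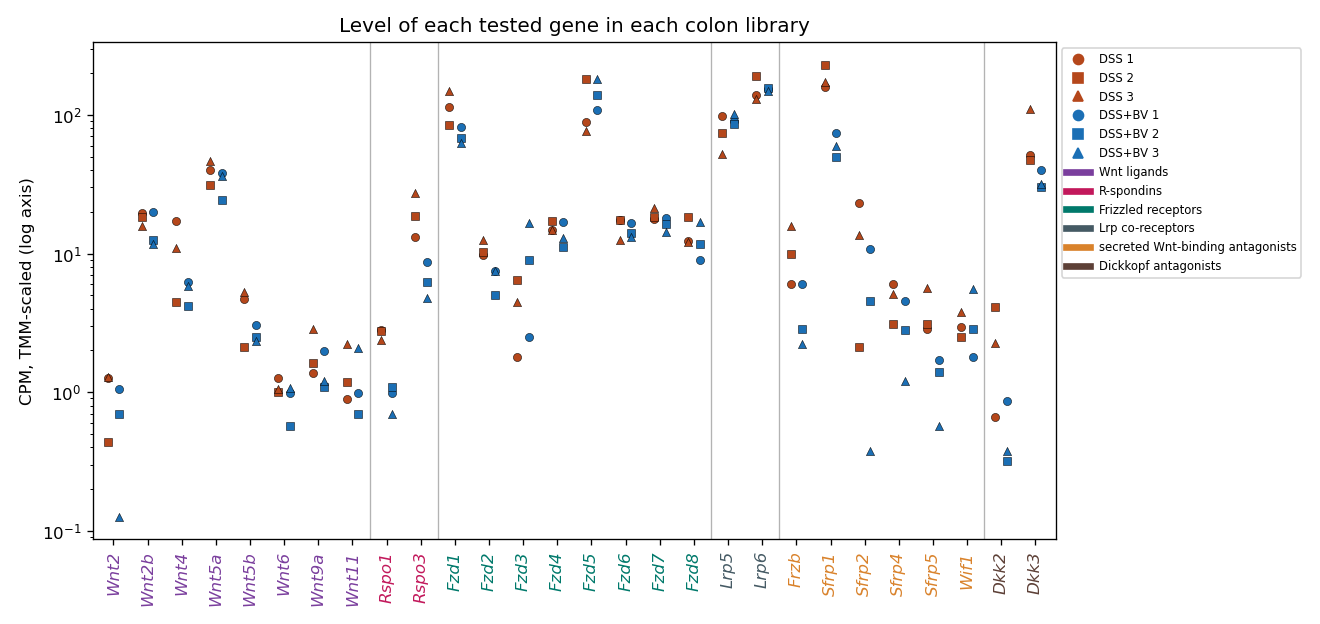
CPM of each of the 28 tested genes in each of the 6 libraries on a log axis, with DSS libraries in red, DSS+BV libraries in blue and library numbers by symbol. Sfrp1, Rspo1 and Rspo3 have separate red and blue points, whereas the points of most Wnt ligands and Frizzled receptors mix.

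The promoters of the 4 genes among the 8 without overlap that have an entry in the RefSeq promoter table are shown, since these genes differed together. Each window has 300 bases, from 250 before to 50 after the annotated start, on the build GRCm38.p6 and written 5′ to 3′ on the strand of the gene. Capitals mark a GC box (GGGCGG on either strand) in Sfrp5 and Frzb and a match to TATAAA (on either strand) in Fzd1. The match in Fzd1 lies in the upstream part of the window, far from the annotated start.
Rspo1, chr4:124986180-124986479, plus strand: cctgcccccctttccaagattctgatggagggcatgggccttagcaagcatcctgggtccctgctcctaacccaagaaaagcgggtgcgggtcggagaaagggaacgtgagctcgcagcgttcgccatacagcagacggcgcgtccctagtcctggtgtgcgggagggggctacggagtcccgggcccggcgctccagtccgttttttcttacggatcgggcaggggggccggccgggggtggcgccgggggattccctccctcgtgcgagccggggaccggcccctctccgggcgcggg
Fzd1, chr5:4758167-4758466, minus strand: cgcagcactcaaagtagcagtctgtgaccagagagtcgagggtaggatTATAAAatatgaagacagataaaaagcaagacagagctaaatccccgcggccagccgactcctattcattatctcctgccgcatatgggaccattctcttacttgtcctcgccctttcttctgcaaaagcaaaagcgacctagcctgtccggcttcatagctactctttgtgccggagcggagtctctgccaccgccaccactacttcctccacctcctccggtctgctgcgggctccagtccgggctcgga
Sfrp5, chr19:42202203-42202502, minus strand: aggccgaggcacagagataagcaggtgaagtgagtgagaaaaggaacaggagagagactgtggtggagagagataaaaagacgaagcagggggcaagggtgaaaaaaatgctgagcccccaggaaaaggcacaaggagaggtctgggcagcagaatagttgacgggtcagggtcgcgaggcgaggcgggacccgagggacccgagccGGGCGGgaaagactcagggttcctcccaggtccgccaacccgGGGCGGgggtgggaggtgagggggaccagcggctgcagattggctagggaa
Frzb, chr2:80447347-80447646, minus strand: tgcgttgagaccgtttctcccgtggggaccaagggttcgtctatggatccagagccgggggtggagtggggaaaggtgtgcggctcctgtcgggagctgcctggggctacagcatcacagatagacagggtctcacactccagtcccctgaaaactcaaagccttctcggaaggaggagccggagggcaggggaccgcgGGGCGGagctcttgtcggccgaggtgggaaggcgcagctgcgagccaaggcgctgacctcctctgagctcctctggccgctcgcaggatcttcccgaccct

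The Sfrp5 window holds 2 GC boxes and the Frzb window 1, and the Rspo1 window holds none although 69% of its bases are G or C. The corresponding G and C shares were 54% for Fzd1, 61.3% for Sfrp5 and 64.7% for Frzb, and the median over all promoters in the table was 52.7%. None of the 4 windows holds the TCF/LEF core CTTTGAT on either strand. Of the 43 genes, 27 have an entry, and taking the first start listed for each gene the TCF/LEF core occurred in 1 of them (Wnt11), or 3.7%, against 3.72% of 27025 promoters. A GC box occurred in 20 of the 27 (74.1%) against 35.9%, and TATAAA in 5 of the 27 (18.5%) against 14.2%. The 3 motifs were searched separately, so that a promoter can count for more than 1 of them. The 27 include genes below the filter and lack Sfrp1, Rspo3, Fzd2 and Dkk3. The shares were not matched for G and C content, on which a GC box depends, so they do not describe the genes that differed.

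All 8 tested Wnt ligands had a negative log2 fold change, between -1.01 for Wnt4 and -0.18 for Wnt11, and in none of them were the groups separate. Wnt5a (Entrez gene 22418, chromosome 14:28504543-28527448), a ligand best known for signalling without beta-catenin, had 40.3, 31.3 and 46.4 CPM in DSS 1, 2 and 3, compared with 37.9, 24.4 and 36.2 CPM in DSS+BV 1, 2 and 3. Wnt2b, a mesenchymal ligand of the canonical pathway, was at 19.6, 18.3 and 15.8 CPM against 19.8, 12.6 and 11.8 CPM. For Wnt5a only DSS+BV 2 lay below all DSS libraries, and for Wnt2b DSS+BV 2 and DSS+BV 3 did, while DSS+BV 1 was within the DSS range for Wnt5a and slightly above it for Wnt2b. The log2 fold change was -0.26 for Wnt5a (95% interval -0.81 to 0.29, edgeR adjusted p = 0.664) and -0.28 for Wnt2b (-0.87 to 0.31, edgeR adjusted p = 0.664). Wnt4, which was the tested ligand with the smallest p-value, was at 17.3, 4.48 and 11 CPM against 6.2, 4.2 and 5.82 CPM. DSS 2 was at the DSS+BV level for Wnt4, and the edgeR interval of -2.17 to 0.14 includes 0 (adjusted p = 0.444). Wnt4 passed DESeq2 with DSS 2 left out, and its edgeR log2 fold change ran from -1.37 to -0.52 with each library left out. Wnt5b, Wnt2, Wnt9a and Wnt6 had log2 fold changes of -0.62, -0.66, -0.46 and -0.32, each with an interval that includes 0. With each library left out, Wnt2 ran from -1.24 to -0.17, and Wnt11 changed sign, from -0.75 to 0.28. The other 9 ligands were below the filter. Among these Wnt8b reached 18 expected counts in a library, Wnt10b and Wnt16 8, Wnt9b 7, Wnt3 5, Wnt10a 3, Wnt7b 2 and Wnt1 1, and Wnt8a had 0 in all 6 libraries.

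Both tested R-spondins were lower in the DSS+BV libraries. Rspo3 (Entrez gene 72780, chromosome 10:29453106-29535867), the main R-spondin of the mesenchyme beneath the crypts, had 13.1, 18.5 and 27.4 CPM in DSS 1, 2 and 3, compared with 8.71, 6.24 and 4.8 CPM in DSS+BV 1, 2 and 3. All DSS+BV libraries were below all DSS libraries, with DSS 3 the highest. Its log2 fold change was -1.58 (95% interval -2.42 to -0.74), with an adjusted p of 0.239 in edgeR and 0.00431 in DESeq2. Rspo1 (Entrez gene 192199, chromosome 4:124986401-125009102), a relative with the same action on Lgr receptors, was at 2.81, 2.74 and 2.39 CPM against 0.989, 1.08 and 0.695 CPM. Its groups were separate, with the DSS libraries within a narrow range. Rspo1 had a log2 fold change of -1.51 (-2.28 to -0.74), with an adjusted p of 0.219 in edgeR and 0.0253 in DESeq2. With any of the 6 libraries left out, Rspo1 no longer passed DESeq2, and Rspo3 no longer passed without DSS 3, DSS+BV 2 or DSS+BV 3. Across the leave-one-out fits of edgeR the log2 fold change was between -1.64 and -1.34 for Rspo1 and between -1.82 and -1.26 for Rspo3. Rspo2 and Rspo4 were below the filter, with Rspo2 at 2, 5 and 21 expected counts against 1, 1 and 9, and Rspo4 at no more than 1.

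Of the 8 tested Frizzled receptors, 6 had a negative and 2 a positive log2 fold change, and 2 had separate groups. Fzd1 (Entrez gene 14362, chromosome 5:4753839-4758216) was at 114, 84.9 and 148 CPM in the DSS libraries and at 81.6, 67.8 and 62.5 CPM in the DSS+BV libraries. Fzd2 (Entrez gene 57265, chromosome 11:102604431-102608058) was at 9.82, 10.2 and 12.5 CPM against 7.45, 5.03 and 7.52 CPM. In both receptors the groups did not overlap, by a small gap in Fzd1, where DSS 2 was at 84.9 and DSS+BV 1 at 81.6 CPM. The log2 fold change was -0.71 for Fzd1 (95% interval -1.25 to -0.17, edgeR adjusted p = 0.334) and -0.70 for Fzd2 (-1.28 to -0.11, edgeR adjusted p = 0.358), and DESeq2 gave adjusted p-values of 0.142 and 0.179. Fzd5, a receptor of the intestinal epithelium, was at 88.6, 181 and 76.8 CPM against 109, 139 and 181 CPM. DSS 2 and DSS+BV 3 were equally high, and the log2 fold change of 0.31 had a wide interval (-0.55 to 1.17, edgeR adjusted p = 0.748) and ran from 0.09 to 0.81 with each library left out. Fzd3, which acts in planar cell polarity and axon guidance, was at 1.8, 6.47 and 4.48 CPM against 2.51, 9.05 and 16.5 CPM, and its log2 fold change of 1.14 also had an interval that includes 0 (-0.59 to 2.87). Fzd4, Fzd6, Fzd7 and Fzd8 had log2 fold changes between -0.25 for Fzd7 and -0.11 for Fzd6. For Fzd7 the interval was -0.67 to 0.17, and for Fzd6 it was -0.61 to 0.38. With each library left out, Fzd3 ran from 0.45 to 1.59, and Fzd8 changed sign, from -0.46 to 0.05. Fzd9 and Fzd10 were below the filter, with at most 14 and 16 expected counts in a library.

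Both Lrp co-receptors overlapped between the groups. Lrp6 (Entrez gene 16974, chromosome 6:134446476-134566913) was at 140, 191 and 131 CPM in the DSS libraries and at 154, 157 and 149 CPM in the DSS+BV libraries. The DSS+BV values lay inside the range of the DSS values, and the log2 fold change was -0.01 (95% interval -0.42 to 0.40, edgeR adjusted p = 0.986). Its sign was positive in several alternatives, with values up to 0.19. Lrp5 (Entrez gene 16973, chromosome 19:3584825-3686585), the second co-receptor, was at 98.7, 73.4 and 52.4 CPM against 90, 86.1 and 101 CPM. Its groups overlapped through DSS 1, and the log2 fold change was 0.30 (-0.25 to 0.86, edgeR adjusted p = 0.62).

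Among the secreted Wnt-binding antagonists, 5 of 6 had a negative log2 fold change and 3 had separate groups. Sfrp1 (Entrez gene 20377, chromosome 8:23411383-23449632), which sequesters Wnt ligands through a domain related to that of the Frizzled receptors, had 159, 229 and 173 CPM in DSS 1, 2 and 3, compared with 73.9, 49.9 and 59.8 CPM in DSS+BV 1, 2 and 3. The highest DSS+BV library was below the lowest DSS library by a wide margin. Mean levels were 187 ± 36.8 and 61.2 ± 12.1 CPM (SD, n = 3 each). Its log2 fold change was -1.61 (95% interval -2.12 to -1.11), and its adjusted p was 0.0833 in edgeR and 2.32e-08 in DESeq2. Sfrp1 passed DESeq2 also with each library left out in turn, and its edgeR log2 fold change stayed between -1.76 and -1.43.

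Sfrp5 (Entrez gene 54612, chromosome 19:42197971-42202252) was at 2.87, 3.11 and 5.65 CPM against 1.71, 1.4 and 0.569 CPM. Frzb (Entrez gene 20378, chromosome 2:80411970-80447396), also known as Sfrp3, was at 6.05, 9.95 and 15.9 CPM against 6, 2.87 and 2.21 CPM. Both had separate groups, but in Frzb only by the step from 6.05 CPM in DSS 1 to 6 CPM in DSS+BV 1, which was lost with RLE or DESeq2 size factors and with other filters on low counts. The log2 fold change was -1.65 for Sfrp5 (95% interval -2.85 to -0.46, edgeR adjusted p = 0.329) and -1.52 for Frzb (-2.73 to -0.32, edgeR adjusted p = 0.345), with DESeq2 adjusted p-values of 0.086 and 0.096. With a library left out in turn, the edgeR log2 fold change of Frzb ran from -2.06 to -1.11, Frzb passed DESeq2 without DSS 1 or without DSS+BV 1, and Sfrp5 passed it without DSS+BV 1. Sfrp2, next to Sfrp1 the most abundant of these antagonists per kb, was at 23.0, 2.11 and 13.5 CPM against 10.7, 4.52 and 0.379 CPM. It varied more between mice of a group than between the groups (log2 fold change -1.31, 95% interval -4.01 to 1.39, edgeR adjusted p = 0.66), and ran from -2.37 to -0.59 with each library left out. Sfrp4 was at 6.05, 3.11 and 5.12 CPM against 4.55, 2.8 and 1.2 CPM, with a log2 fold change of -0.74 (-1.97 to 0.49). Wif1, which binds Wnt ligands through its own WIF domain, was the member of this subfamily with a positive value, at 2.93, 2.49 and 3.79 CPM against 1.78, 2.87 and 5.5 CPM and a log2 fold change of 0.14 (-0.94 to 1.23). With each library left out, Sfrp4 ran from -1.23 to -0.37, and Wif1 changed sign, from -0.4 to 0.46.

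Of the Dickkopf genes, Dkk2 and Dkk3 passed the filter. Dkk3 (Entrez gene 50781, chromosome 7:112116019-112159482), a divergent Dickkopf protein, was at 51.1, 47.2 and 110 CPM in the DSS libraries and at 39.9, 30.1 and 31.7 CPM in the DSS+BV libraries. Groups were separate, and DSS 3 stood far above the other libraries. Dkk3 had a log2 fold change of -1.04 (95% interval -1.87 to -0.21, edgeR adjusted p = 0.346), which was between -1.25 and -0.54 with each library left out and passed DESeq2 without DSS 2. Dkk2 (Entrez gene 56811, chromosome 3:132085266-132180304), which blocks Lrp5 and Lrp6, was at 0.659, 4.1 and 2.27 CPM against 0.857, 0.319 and 0.379 CPM. DSS 1 lay within the DSS+BV range, so the groups overlapped, and the log2 fold change was -2.16 (-3.95 to -0.38, edgeR adjusted p = 0.356, DESeq2 adjusted p = 0.152). Across the leave-one-out fits Dkk2 ran from -2.71 to -1.49, and it passed DESeq2 without DSS 1. Dkk1 and Dkk4 had no more than 1 expected count in a library.

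The other genes of the pathway were read from the same fit. Of 90 genes in 7 lists, 84 passed the filter, edgeR called 0 of them, and DESeq2 called 4 lower and 1 higher, against the 1.93% and 0.274% of all tested genes given above. All 4 genes called lower were in the list of other extracellular antagonists. Its 6 tested genes were all negative with a median log2 fold change of -1.61, and 5 had separate groups, against 11.3% of all tested genes in the lower direction. Igfbp4, a binding protein for insulin-like growth factors that also inhibits Wnt reception, had 439, 314 and 442 CPM in DSS 1, 2 and 3, compared with 146, 128 and 110 CPM in DSS+BV 1, 2 and 3. Grem1, which is known as an antagonist of BMP and not of Wnt ligands, was at 160, 226 and 139 CPM against 64.8, 28.5 and 37.0 CPM. Both had all DSS+BV libraries below all DSS libraries. Igfbp4 had a log2 fold change of -1.63 (edgeR adjusted p = 0.0828, DESeq2 adjusted p = 1.41e-10) and Grem1 of -2.01 (edgeR adjusted p = 0.161, DESeq2 adjusted p = 1.13e-05). The membrane inhibitor Apcdd1 (-1.31, DESeq2 adjusted p = 0.0123) and the secreted inhibitor Draxin (-1.64, DESeq2 adjusted p = 0.0253) were the other genes called lower.

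The gene called higher by DESeq2 was Lgr5, an R-spondin receptor and a target gene that marks crypt stem cells. It was at 0.24, 0.622 and 0.349 CPM in the DSS libraries and at 0.462, 6.75 and 5.37 CPM in the DSS+BV libraries. DSS+BV 1 lay within the DSS range and the other DSS+BV libraries were far above it. Lgr5 had a log2 fold change of 3.36 (95% interval 1.06 to 5.66), with an adjusted p of 0.318 in edgeR and 0.0184 in DESeq2. Among 6 tested genes for Lgr receptors and receptor turnover the median was 0.10, and Znrf3, the ligase that removes Frizzled from the membrane, had 0.34 (edgeR adjusted p = 0.613). Of 18 tested target genes, 13 were positive and the median was 0.32. Separate groups in the lower direction were seen in 2 of the 18, a share near the 11.3% of all tested genes. These were Apcdd1, described above, and the feedback inhibitor Nkd1 (-0.75, edgeR adjusted p = 0.239, DESeq2 adjusted p = 0.0104, short of the fold threshold). Axin2, another feedback target, was at 18.7, 4.85 and 6.0 CPM against 9.23, 12.6 and 15.2 CPM, with overlapping groups and a log2 fold change of 0.33.

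Inside the cell the genes differed in both directions. The 38 tested genes of cytoplasmic transduction and nuclear effectors had log2 fold changes between -0.97 and 0.53 with a median of 0.11, and 3 had separate groups in the lower and 4 in the higher direction, against 11.3% and 6.37% of all tested genes. The cytoplasmic genes summed to between 2192 and 2486 CPM in the DSS group and between 2415 and 2771 CPM in the DSS+BV group, with overlap. The nuclear effectors summed to between 795 and 863 CPM against between 902 and 977 CPM, without overlap. Dact1 (-0.55) and Dvl3 (0.34), which act around Dishevelled, had the smallest p-values of the first list, and the beta-catenin partner Pygo1 (-0.97) and the co-repressor Tle4 (0.53) those of the second, with edgeR adjusted p-values of 0.367, 0.399, 0.384 and 0.513. Wnt secretion genes had a median of -0.33 over 7 tested genes. Porcn, which lipidates Wnt ligands, had separate groups in the lower direction (-0.74, edgeR adjusted p = 0.367), and the matricellular gene Tinagl1 had -0.49 (edgeR adjusted p = 0.476). Of 15 tested genes for other receptors and planar polarity, 11 were negative with a median of -0.43, with the smallest p-values in Adgra2, a co-receptor for Wnt7 ligands (-0.90, edgeR adjusted p = 0.222, DESeq2 adjusted p = 0.00968), and in Prickle2 (-0.60, edgeR adjusted p = 0.302, DESeq2 adjusted p = 0.0492), both short of the fold threshold.

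**Figure D4:**
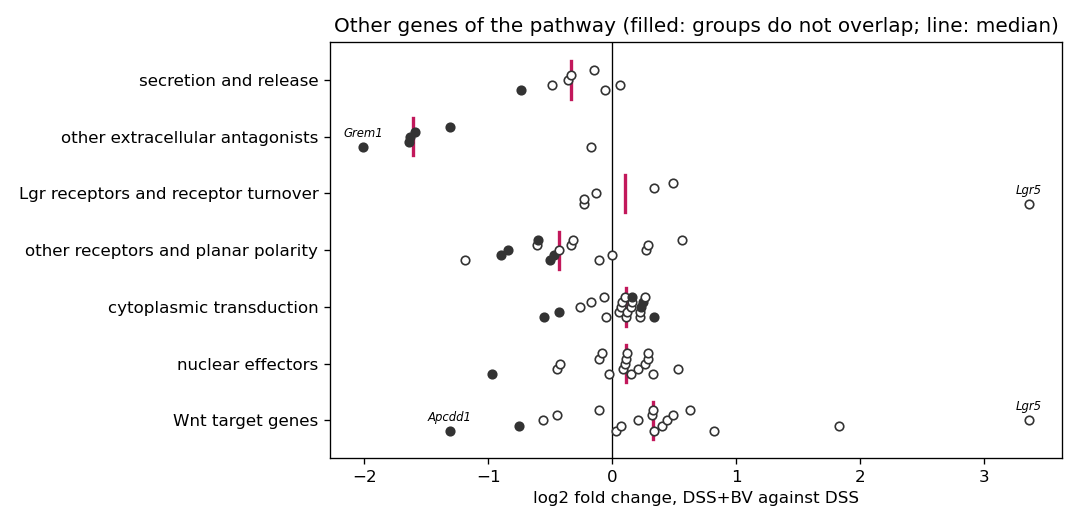
Log2 fold change of each tested gene of 7 pathway lists, DSS+BV against DSS, with 1 row per list and a vertical line at the median of the list. Filled points are genes whose groups do not overlap, and the extracellular antagonists lie furthest to the left with a median of -1.61, while the cytoplasmic and nuclear lists lie around 0.11.

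Markers of the cell types of the colon wall were read from the same fit, and their direction differed between cell types. The 15 fibroblast markers summed to 4365, 4182 and 4157 CPM in DSS 1, 2 and 3 and to 2263, 1569 and 1615 CPM in DSS+BV 1, 2 and 3, and 14 of the 15 had a negative log2 fold change with a median of -0.56. Without the collagens the sum of the remaining 12 was between 1252 and 1874 CPM in the DSS group and between 747 and 1072 CPM in the DSS+BV group, and no fibroblast marker was at 0 in a library. The 12 enteric neuron and glia markers were all negative, with a median of -1.64 and sums of 78 to 325 CPM against 53 to 63.9 CPM. Of the neutrophil markers, 10 were tested, all with a negative log2 fold change and a median of -3.70. Among them 8 had separate groups, 6 were called lower by edgeR and 9 by DESeq2, against 11.3%, 0.0892% and 1.93% of all tested genes. The sum over all 13 listed neutrophil markers overlapped, at 217 to 1062 CPM against 32.2 to 329 CPM, with Ly6g its largest contributor at 485, 76.1 and 854 CPM against 303, 215 and 19.1 CPM, and Camp, Ngp, Elane and Mpo were at 0 in at least 1 library. The 12 epithelial markers were all positive with a median of 0.32 and sums of 13017 to 15429 CPM against 16564 to 21811 CPM. Smooth muscle markers had a median of -0.22 and overlapping sums, at 3682 to 4610 CPM against 2766 to 4370 CPM. The 10 endothelial markers were all negative, with a median of -0.63 and separate sums, at 484 to 654 CPM against 311 to 435 CPM. Macrophage and lymphocyte markers had medians of -0.88 and -0.44 and overlapping sums. The summed level of 8 distal position genes, at 354, 73.9 and 208 CPM in the DSS libraries and 346, 172 and 19.7 CPM in the DSS+BV libraries, differed between mice of each group, with Hoxb13, Hoxd12 and Hoxc10 at 0 in at least 1 library. The part of cell composition, of neutrophil content and of sampled position in the lower antagonist and R-spondin levels was not tested.

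**Figure D5:**
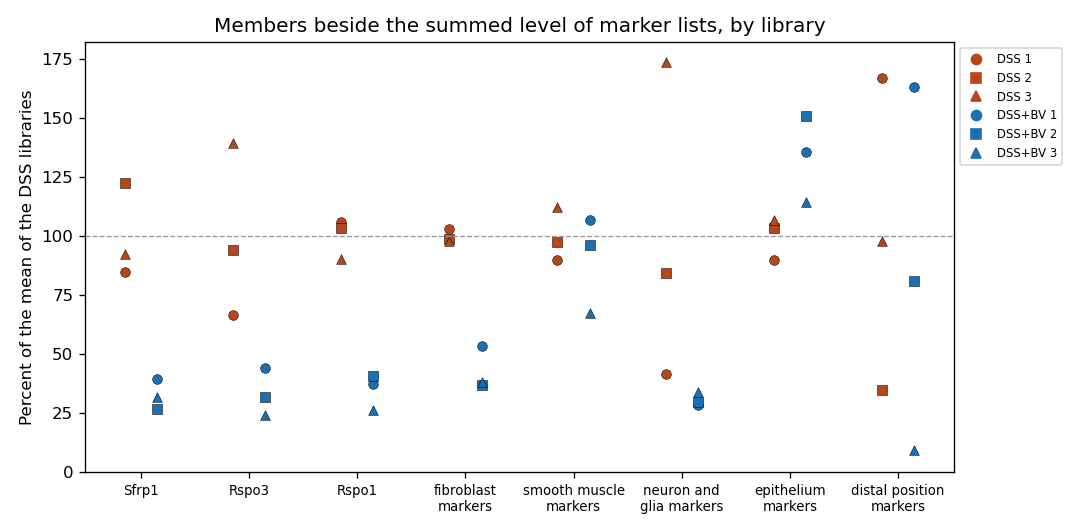
Sfrp1, Rspo3, Rspo1 and the summed CPM of 5 marker lists in each library, as a percent of the mean of the DSS libraries, with DSS libraries in red and DSS+BV libraries in blue. The fibroblast sums and the neuron and glia sums separate the groups in the same direction as the 3 genes. The epithelial sums separate them in the opposite direction, and the smooth muscle and distal position sums overlap.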

How the data were processed

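Colon RNA of 3 DSS and 3 DSS+BV mice was sequenced as 1 library per mouse. The authors quantified genes with RSEM and deposited expected counts per gene, not scaled between libraries. The submitters' processing notes name HISAT2 2.1.0, Bowtie2 2.2.5, RSEM 1.2.8 and the build GRCm38.p6. Reads that match several genes are divided by RSEM, which can split counts between close relatives such as the Wnt or Fzd paralogs.

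Expected counts were rounded, genes were kept with filterByExpr (minimum count 10, minimum total 15), and the tests were quasi-likelihood F tests in edgeR 4.0.16 (TMM factors, Benjamini-Hochberg adjustment over 14579 genes, R 4.3.3). The biological coefficient of variation was 32.1%. The study used DESeq2, which was run here as an alternative (DESeq2 1.42.0, with 14574 genes given an adjusted p). Mice of 1 group differed by more than sampling noise (chi-square per degree of freedom 44.7 to 123). With 3 mice per group an exact two-sided permutation test of a single gene cannot go below 0.1. Libraries are separate mice by the labels.

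The genes and lists were chosen with earlier results of these data known. Values in every library are given for genes called by either tool, genes without overlap and with an unadjusted edgeR p under 0.05, and the 2 most abundant genes of each subfamily, and in each pathway list the genes called and the 2 with the smallest p-values are named. Wnt4, Fzd3, Sfrp4, Wif1, Rspo2 and Axin2 were given per library after their values were seen. Coordinates and promoters come from RefSeq for GRCm38.p6, matched by Entrez gene number. Exon lengths come from the GENCODE annotation of the same build, matched by gene symbol. Alternatives were DESeq2, RLE and upper-quartile factors, other filters, a robust fit, the replicate number as a block, no fold threshold, plain CPM and each library left out. DESeq2 with each library left out and medians without genes at 3 or fewer counts in a whole group were added after seeing the data. Plots were made in Python 3.11.15 with matplotlib 3.10.9.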

Additional observations from a re-analysis of the deposited data

How the results depend on the processing

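Under RLE, upper-quartile and DESeq2 factors, the genes Dkk3, Fzd1, Fzd2, Rspo1, Rspo3, Sfrp1 and Sfrp5 kept separate groups, and Frzb did not under RLE or DESeq2 factors. Upper-quartile factors moved the shares of all genes with separate groups to 13.4% lower and 4.47% higher. Leaving out a library makes separate groups more frequent by construction: the count in the lower direction was 8 with all libraries and between 8 and 14 with 1 left out, with 13 without DSS 2 and 14 without DSS+BV 1, where 17.5% and 20.5% of all genes were separate and lower. Genes with separate groups in the higher direction numbered 0 in the reported fit with all libraries, and 1 when every gene with a count was kept (Wnt16, below the filter otherwise). They numbered 1 without DSS 1 (Lrp5), 2 without DSS 2 (Fzd5 and Lrp6) and 2 without DSS+BV 1 (Fzd3 and Fzd10). edgeR called 0 of the genes and 0 pathway genes under each of its alternatives, but over all genes it also called 0 with the replicate number as a block and no more than 3 lower and 4 higher with a library left out, so these counts say nothing about stability. DESeq2 called 3 of the genes and 5 pathway genes. With a library left out DESeq2 called between 1 and 4 of the genes, namely 4 without DSS 1, DSS 2 or DSS+BV 1 and 1 (Sfrp1) without DSS 3, DSS+BV 2 or DSS+BV 3. Its lower calls over all genes moved alongside, from 2.84% to 4.37% in the first 3 of these fits and from 0.719% to 1.02% in the others. Without its most abundant gene, the log2 ratio of the summed level was -0.44 for the Frizzled receptors, 0.30 for the co-receptors, -1.11 for the secreted antagonists and -2.13 for the Dickkopf genes, against -0.11, 0.10, -1.52 and -1.06 with it. Lrp6 was between -0.12 and 0.19 with each library left out and changed sign, to 0.02 with every gene with a count, 0.01 with the replicate block, 0.19 without DSS 2 (also with DESeq2), 0.01 without DSS+BV 3 and 0.02 without DSS+BV 3 in DESeq2. Wnt11, Wif1 and Fzd8 also changed sign with a library left out, as given above. The cause of these changes was not tested. With each library left out in edgeR, the medians ran from -1.69 to -1.37 for the R-spondins, from -1.86 to -1.01 for the secreted antagonists, from -1.94 to -1.36 for the Dickkopf genes, from -0.63 to -0.18 for the Wnt ligands, from -0.20 to -0.02 for the Frizzled receptors and from -0.01 to 0.25 for the co-receptors. Same-numbered DSS and DSS+BV libraries had correlations of their deviations from the group means of 0.238, 0.28 and -0.311. With 3 libraries per group such deviations depend on each other, so these values do not decide whether the numbers pair the mice. The reported fit did not pair them. The filter left 15 genes out of the reported test, of which 14 entered the fit that kept every gene with a count, and with 3 mice per group the 95% interval included 0 for all but 9 of the 28 others.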
